A study of Hippoglossus hippoglossus with 15 samples.

Results

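The interferon pathway was followed in Atlantic halibut (Hippoglossus hippoglossus) embryos through 3 probes of a custom oligonucleotide array, one each for interferon regulatory factor 7 (irf7, probe HH_90607192), interferon-inducible protein 56 (ifi56, probe HH_90607644) and a ring finger protein (rnf213, probe HH_90598492). They were taken by name as 3 of the 10180 probe names on the array and described on all 15 arrays. Total RNA was labelled with Cy3 and hybridized in 1 colour, with 3 arrays per group. The groups were low quality embryos at the 8-cell stage (8CS, 8 hpf) and high quality embryos at 8CS, at the germ ring stage (GR, 82 hpf), at the stage of 10 somites (10SS, 142 hpf) and at hatching (HT, 340 hpf). The labels give no treatment or altered allele for any group. Quality was assigned in the study by the share of eggs that were fertilized and that hatched. Each array held RNA of a batch of many eggs, eggs were fertilized with sperm pooled from 2 males, and the same 3 high quality 8CS arrays served in the comparison of stages and in that of qualities. The methods describe separate collections of eggs for these aims, whereas the labels give a single farm. By the methods, eggs for the comparison of qualities were kept in dishes with antibiotics. Those for the stages were kept in large incubators at a slightly higher temperature. The sources do not settle which collection the shared 8CS arrays came from, and in a comparison that crosses the collections their place cannot be told apart from the groups compared. In RNA of whole embryos, fewer cells of a type and less RNA per cell cannot be told apart.

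In vertebrates, virus sensors switch on kinases such as tank-binding kinase 1 (tbk1), which activate transcription factors of the interferon regulatory factor family. IRF7 is the factor best known for driving type I interferon production in mammals, and secreted interferon then raises many target transcripts in the same and in neighbouring cells. Ifi56 belongs to the IFIT family, whose mammalian members bind foreign RNA, and RNF213 is a very large ubiquitin ligase that interferon raises in human cells. At the 8-cell stage an embryo holds mainly RNA that the mother laid down in the egg, and transcription from its own genome starts later in development.

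The files name the probes but were used here without probe sequences. To identify the transcripts, the primers that the study designed for its PCR of 2 of the 3 transcripts are given, 5′ to 3′ in lower case. The PCR measurements themselves were not used here, and no primer pair was listed under the name of ifi56.
irf7 forward: actgtcaatgtggttcct
irf7 reverse: atcgtagaggctgttgtg
rnf213 forward: gatggtcgttgatcctcagtgt
rnf213 reverse: ccttggctacagtgctggaa

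The level of a probe is its processed signal in log2, after subtraction of the 75th percentile of that array, so that 0 is the level of a probe at that percentile and a difference of 1 is a 2-fold change. A level is not an amount of transcript, and levels of different probes were not set against each other. The share of probes well above background was between 69.3% and 90.1% per array, and the 3 arrays per group limit the precision. Replicate 3 of 10SS stood apart, with a Pearson correlation of 0.861 and 0.865 to the other 10SS arrays, which correlated at 0.991 with each other. Correlations within the other groups were 0.961 or more. Steps of the members that involve 10SS are therefore given with and without this array. As a check of the HT label, mybpc3, a component of heart muscle, averaged 2.16 ± 0.09 at HT. It averaged between -2.06 and -1.85 at the 3 earlier stages of high quality embryos, which it does not tell apart. The study reported mybpc3 as high at HT from these arrays, so this check is not independent. A change was called at an adjusted p under 0.05 (limma with Benjamini-Hochberg adjustment over all probes kept) and at least 2-fold. Nothing in the labels says how the 3 batches of a group were separated, so that the p-values measure the spread between these samples.

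The irf7 probe was 7.29-fold lower in low than in high quality 8CS embryos, whereas the rnf213 probe had a 4.23-fold higher mean that passed, against a group in which 1 of 3 arrays measured it well above background, and the ifi56 probe had a 3.04-fold higher mean that did not pass the test. Between the 2 qualities 102 of 8737 probes passed (1.17%), 14 of them higher and 88 lower in low quality 8CS embryos, and the median difference over all probes was -0.06. The split depended on the scaling, with 39 higher and 49 lower after quantile normalization and 2160 higher and 207 lower under spike-in scaling.

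The transcription factor irf7 had log2 levels of -4.39, -4.16 and -3.83 on the low quality 8CS arrays and of -0.52, -1.70 and -1.55 on the high quality 8CS arrays. All 3 low quality arrays lay below all 3 high quality arrays. The share of all probes without overlap between the qualities was not taken, so this is a description only. The means were -4.12 ± 0.28 in low and -1.26 ± 0.64 in high quality 8CS embryos (SD, n = 3 each), a difference of -2.87 ± 0.35 (SE, adjusted p = 0.0275 in limma) that ranked 238 from the bottom of 8737 probes. All 6 arrays had the probe well above background, with processed signals before any scaling of 59 to 80.9 in low and 287.9 to 498.2 in high quality 8CS embryos. On slide 1, which held 1 low and 2 high quality arrays, the difference was -3.27, and on slide 4, with 1 of each, it was -2.28. The call was lost with slide as a fixed block (adjusted p = 0.11) and without high quality replicate 2 (adjusted p = 0.0589), low quality replicate 1 (0.15) or low quality replicate 2 (0.108), with differences between -3.09 and -2.50 over all arrays left out.

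The ubiquitin ligase rnf213 had log2 levels of -4.29, -4.07 and -4.13 on the low quality 8CS arrays and of -5.75, -6.92 and -6.08 on the high quality 8CS arrays. The groups did not overlap, which is a description only, as for irf7, and the low quality arrays lay close together. The means were -4.17 ± 0.11 in low and -6.25 ± 0.60 in high quality 8CS embryos, a difference of 2.08 ± 0.31 (SE, adjusted p = 0.0405 in limma) that ranked 12 from the top. The signal was dim: the probe was well above background on 3 of 3 low quality arrays and on 1 of 3 high quality arrays, with processed signals of 54.4 to 85.8 in low and 9.5 to 13.3 in high quality 8CS embryos. With normexp background correction, which adds an offset to every spot, the difference was 0.41 and the call was lost (adjusted p = 0.206). It was also lost with slide as a fixed block (2.0, adjusted p = 0.132), with the median over spots (2.0, adjusted p = 0.0546) and on leaving out any array but high quality replicate 3 (adjusted p between 0.0589 and 0.185). Within slide 1 the difference was 2.04 and within slide 4 it was 1.94.

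The interferon-inducible transcript ifi56 had log2 levels of -3.07, -2.51 and -3.72 on the low quality 8CS arrays and of -4.69, -4.79 and -4.62 on the high quality 8CS arrays. The groups did not overlap, which is a description only, as for irf7, and the high quality arrays lay close together. The means were -3.10 ± 0.61 in low and -4.70 ± 0.09 in high quality 8CS embryos, a difference of 1.60 ± 0.31 (SE, 95% interval 0.85 to 2.35) that missed the threshold (adjusted p = 0.0681 in limma). It was the difference ranked 36 from the top of 8737 probes. It passed without high quality replicate 3 (1.64, adjusted p = 0.0397) or without low quality replicate 3 (1.91, adjusted p = 0.0395). Within slide 1 the difference was 1.67 and within slide 4 it was 0.90.

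**Figure D1:**
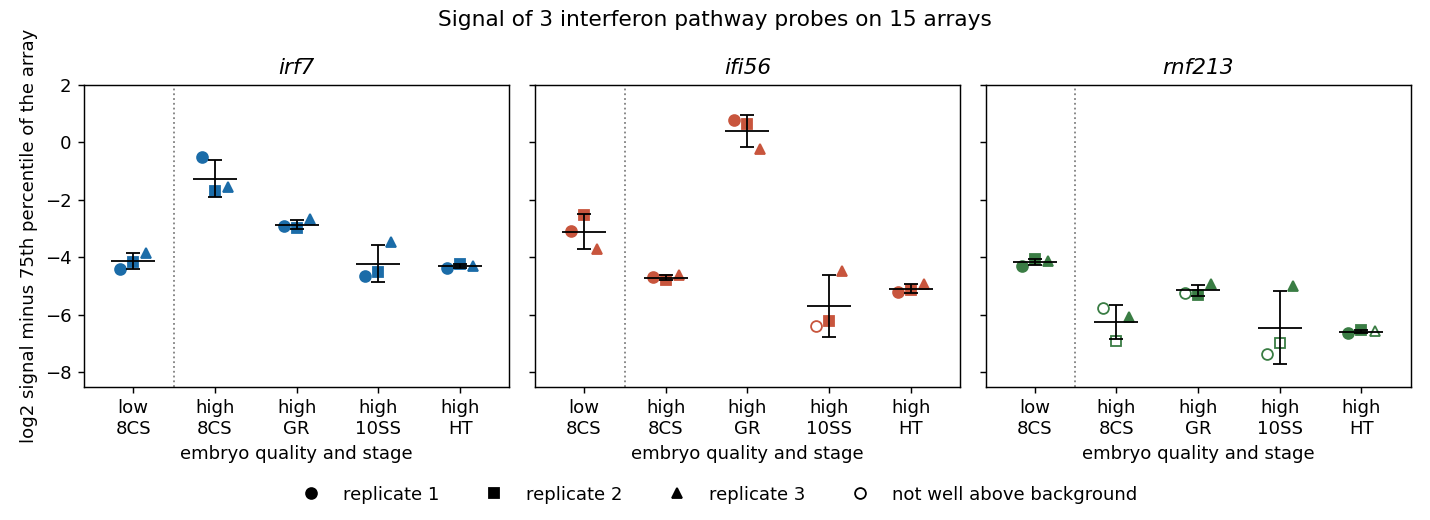
Log2 signal minus the 75th percentile of the array (vertical axis) of irf7, ifi56 and rnf213 on the 15 arrays, by group (horizontal axis, low quality 8CS left of the dotted line). Symbols are arrays, open where the probe was not well above background, and bars are the mean ± SD of 3 arrays. The irf7 probe lies at -4.12 in low and -1.26 in high quality 8CS embryos, the rnf213 probe at -4.17 in low and -6.25 in high quality 8CS embryos, and ifi56 peaks at GR with 0.40.

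Other genes of the pathway with a named probe formed a set of 5: tbk1 (probe HH_Contig2917), which activates IRF7 in mammals, and mhc1a (HH_Contig2306), psmb9 (HH_Contig1979), pd-1l (HH_Contig2081) and mhc2a (HH_38317730), which interferons raise in mammals. Of these 5, 1 passed between the qualities, in the upward direction, beside 1.17% of all probes. The study took pd-1l, psmb9, mhc1a and mhc2a from its own comparison of these arrays, so this count is not independent evidence. The gene that passed was pd-1l, the ligand of the inhibitory receptor PD-1 of lymphocytes, with -1.04, -0.77 and -0.63 on the low and -3.21, -2.55 and -2.42 on the high quality 8CS arrays (difference 1.91 ± 0.26, adjusted p = 0.0342 in limma). The call of pd-1l was lost with slide as a fixed block (1.82, adjusted p = 0.104).

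The 3 genes of antigen presentation did not pass. None of their groups overlapped, but the share of all probes without overlap was not taken, so this is a description only. In this comparison 2719 of 8737 probes had an unadjusted p under 0.05 in limma. For psmb9, a subunit of the immunoproteasome, the difference was 1.97 (adjusted p = 0.0535). For mhc1a, the chain that presents peptides from inside the cell, it was 1.34 (adjusted p = 0.0624). The probe of mhc2a, a chain of the receptor that presents ingested antigen, did not stand well above background on high quality 8CS arrays, and its mean level was at least 2.52-fold higher in low quality 8CS embryos (adjusted p = 0.0744). On the low quality arrays it had -4.53, -4.83 and -6.58, so this bound holds for the means and not for each array. All 3 passed in the fit of all 15 arrays (adjusted p = 0.00177 for psmb9, 0.0172 for mhc1a and 0.00892 for mhc2a) and under spike-in scaling, and psmb9 and mhc1a with quantile normalization (adjusted p = 0.0485 and 0.0454). With normexp the difference was 0.38 for mhc1a (adjusted p = 0.162), 0.24 for mhc2a (adjusted p = 0.396) and 1.43 for psmb9, which passed (adjusted p = 0.0463). The kinase tbk1 had -3.30, -4.00 and -3.90 on the low and -2.73, -3.52 and -2.55 on the high quality 8CS arrays, which overlap (difference -0.80, adjusted p = 0.151).

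The median difference of these 5 genes was 1.91, beside -0.06 over all probes tested. The study took irf7, rnf213, pd-1l, psmb9, mhc1a and mhc2a from its own comparison of these arrays, so their direction between the qualities is not independent evidence. Under spike-in scaling the median over all probes was 0.69 in place of -0.06. The differences were then -2.12 for irf7, 2.35 for ifi56 and 2.83 for rnf213, and each kept its sign.

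**Figure D2:**
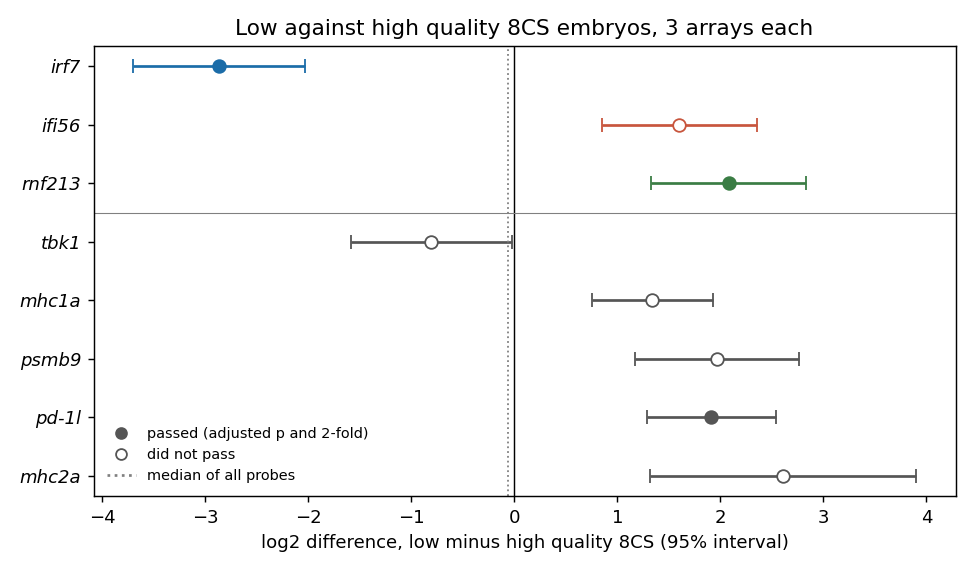
Log2 difference of low minus high quality 8CS embryos (horizontal axis) for irf7, ifi56 and rnf213 (above the line) and 5 other genes of the pathway (below it), with 95% intervals from limma over 3 arrays per group. Filled points passed the adjusted p and the 2-fold limit, and the dotted line is the median of all probes. The irf7 point is at -2.87 and rnf213 at 2.08, with ifi56 at 1.60 open.

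Over the 4 stages of high quality embryos the 3 probes followed different courses. The irf7 probe was highest at 8CS, lower at GR and lower again at 10SS under the 75th percentile scaling, the last of which turned under spike-in scaling. The ifi56 probe had a single peak at GR, and no step of rnf213 between neighbouring stages passed. Shares of all probes that passed were 42.2% for GR against 8CS, 42.2% for 10SS against GR, 14.5% for HT against 10SS and 63.8% for HT against 8CS (9283 probes), so that a call between stages is common on this array. The share of all probes without overlap between stages was not taken, so statements on overlap of stages are descriptions only.

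The irf7 probe had log2 levels of -0.52, -1.70 and -1.55 at 8CS. They were -2.91, -2.99 and -2.67 at GR, -4.66, -4.52 and -3.47 at 10SS and -4.36, -4.23 and -4.31 at HT. Arrays of 8CS, GR and the 2 later stages formed 3 levels without overlap, and 10SS and HT overlapped. GR was lower than 8CS by 3.02-fold (difference -1.60 ± 0.37, adjusted p = 0.00401 in limma) and 10SS lower than GR by 2.57-fold (-1.36 ± 0.37, adjusted p = 0.0112, and -1.74 without 10SS replicate 3). The second of these steps changed sign under spike-in scaling (0.46, adjusted p = 0.212). HT was 8.21-fold lower than 8CS (-3.04 ± 0.37, adjusted p = 3.17e-05), and under spike-in scaling this was -0.72 with the call lost (adjusted p = 0.0531). HT and 10SS differed by -0.08 (95% interval -0.89 to 0.73), which turned to 0.29 without 10SS replicate 3 and to 0.70 under spike-in scaling. Slide 4 held 1 array each of 8CS and GR, with a difference of -1.12, and with slide as a fixed block the call was lost (-1.12, adjusted p = 0.0817).

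The ifi56 probe had log2 levels of -4.69, -4.79 and -4.62 at 8CS. They were 0.78, 0.64 and -0.23 at GR, -6.39, -6.22 and -4.46 at 10SS and -5.19, -5.14 and -4.91 at HT. The 3 GR arrays were far above all others, and processed signals at GR were 439.5 to 1337, against 27.6 to 41.5 at 8CS. GR was 34.3-fold higher than 8CS (5.10 ± 0.46, adjusted p = 9.53e-06 in limma), the difference ranked 152 from the top of 9283 probes. At 10SS the level was 68.0-fold lower than at GR (-6.09 ± 0.46, adjusted p = 2.32e-05), the lowest difference of all 9283 probes under this scaling, and -6.70 without 10SS replicate 3. Both steps kept sign and call under all alternatives, including spike-in scaling (4.82 for GR minus 8CS and -4.27 for 10SS minus GR). Within slides the GR minus 8CS difference was 4.39 on slide 4, and 10SS minus GR was -7.17 on slide 2 and -6.86 on slide 3.

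The later stages of ifi56 had means of -5.69 at 10SS and -5.08 at HT, against -4.70 at 8CS. HT differed from 8CS by -0.38 (95% interval -1.39 to 0.63, adjusted p = 0.473), and this sign depended on the scaling, with 1.94 under spike-in scaling (adjusted p = 0.00297). HT differed from 10SS by 0.61 (adjusted p = 0.38), by 1.22 without 10SS replicate 3 (adjusted p = 0.00741) and by -0.62 within slide 5, where this replicate is the only 10SS array. With slide as a block HT minus 8CS passed, at -3.25 as a fixed block (adjusted p = 7.68e-05), which ties HT to the other slides through this one array, and at -2.38 as a random block (adjusted p = 0.00143). Only on 10SS replicate 1 was this probe not well above background.

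The rnf213 probe had log2 levels of -5.75, -6.92 and -6.08 at 8CS. They were -5.23, -5.31 and -4.92 at GR, -7.35, -6.99 and -5.00 at 10SS and -6.64, -6.54 and -6.57 at HT. All GR arrays were above all 8CS and HT arrays, and 10SS replicate 3 lay among the GR arrays. GR minus 8CS was 1.1 ± 0.53 (adjusted p = 0.109 in limma) and did not pass, with 1.16 on slide 4. 10SS minus GR was -1.30 ± 0.53 (adjusted p = 0.0605), with -2.12 on slide 2 and -1.69 on slide 3. Without 10SS replicate 3 both passed, at 1.1 (adjusted p = 0.00493) and -2.02 (adjusted p = 0.000183), while under spike-in scaling the second was 0.52. HT minus 10SS was -0.14 (95% interval -1.30 to 1.03), 0.59 without 10SS replicate 3 and 0.64 under spike-in scaling. HT minus 8CS was -0.34 (95% interval -1.5 to 0.83), and 1.98 under spike-in scaling. With slide as a fixed block, 10SS minus GR (-1.90, adjusted p = 0.00141), HT minus 10SS (-1.58, adjusted p = 0.00916) and HT minus 8CS (-2.33, adjusted p = 0.0198) passed, and with slide as a random block so did all 4 differences (adjusted p between 0.000632 and 0.0326). At most 2 of 3 arrays of each high quality group were well above background, so that these values lie near the limit of the measurement.

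For GR minus 8CS, 2 of the 5 other genes of the pathway fell, none rose and 2 did not pass. The probe of mhc2a was below the filter on low signal in the stages. As 42.2% of all probes passed for GR minus 8CS, these counts do not set the pathway apart. Those that fell were tbk1, by at least 7.02-fold to a signal that no GR array had well above background (adjusted p = 2.73e-05), and pd-1l, by 2.57 on the log2 scale (adjusted p = 0.000846). The differences of mhc1a were 0.90 for GR minus 8CS (adjusted p = 0.0258, under 2-fold) and -0.94 for 10SS minus GR (adjusted p = 0.0217, and 0.88 under spike-in scaling). For 10SS minus GR, pd-1l fell by 2.58 on the log2 scale (adjusted p = 0.00147, and -0.76 with adjusted p = 0.229 under spike-in scaling). Its probe was well above background on 2 of 3 GR arrays and on 1 of 3 10SS arrays, so this size lies near the limit of the measurement. The tbk1 signal did not stand well above background at GR or 10SS on any array, so no fold is given for this step. Over it psmb9 rose by 1.66 (adjusted p = 0.000405), and by 3.48 under spike-in scaling. For HT minus 10SS none of the 4 genes tested passed under the 75th percentile scaling, where 14.5% of all probes passed. Under spike-in scaling mhc1a did (1.0, adjusted p = 0.035), and psmb9 did with quantile normalization (-1.14, adjusted p = 0.0046). In the fit of all 15 arrays, which kept mhc2a, this probe passed the test for HT minus 10SS (adjusted p = 0.0192) with no array of either stage well above background, so no fold is given. At HT no array had tbk1 or pd-1l well above background, and their signals were at least 24-fold (tbk1) and 25.1-fold (pd-1l) below 8CS. These bounds hold for the 75th percentile scaling only, and under spike-in scaling HT minus 8CS was -3.81 for tbk1 and -2.78 for pd-1l on the log2 scale. The study listed ifi56 as a transcript of GR and tbk1 and pd-1l as transcripts of 8CS from these arrays, so these directions are not independent evidence either.

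Whether the members moved together was measured within each array, as the difference between the log2 signals of 2 probes, on which the scaling of the array has no bearing. Only the change of this difference between groups is read, with exact permutation tests, 6 in all. With 3 arrays against 3 the smallest two-sided p is 0.1, so no test between the qualities could fall under 0.05.

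Between qualities the differences that include irf7 did not overlap between the groups, and the third did. The share of all probe pairs without overlap was not taken, so this is a description only, and no test passed. The study took irf7 and rnf213 from its own comparison of these arrays, so this separation is not independent evidence. The rnf213 probe was well above background on 1 of 3 high quality 8CS arrays. The difference rnf213 minus irf7 was 0.10, 0.08 and -0.30 on the low quality 8CS arrays and -5.22, -5.22 and -4.52 on the high quality 8CS arrays, a change of 4.95 (exact two-sided permutation p = 0.1, the smallest possible, adjusted p = 0.12). The difference ifi56 minus irf7 averaged 1.02 ± 0.81 in low and -3.44 ± 0.63 in high quality 8CS embryos, a change of 4.47 (exact p = 0.1, adjusted p = 0.12). In both, all low quality arrays were above all high quality arrays. The difference ifi56 minus rnf213 averaged 1.07 ± 0.60 in low and 1.55 ± 0.55 in high quality 8CS embryos, and these groups overlapped (change -0.48, exact p = 0.5, and 0.29 with normexp background correction).

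Between stages all 3 differences changed. The study listed ifi56 as a transcript of GR from these arrays, so the changes that include ifi56 are not independent evidence. It took irf7 and rnf213 from a comparison that used the same high quality 8CS arrays. The change of rnf213 minus irf7 rests on these arrays and is not independent evidence either. For rnf213 minus irf7 the means were -4.99 ± 0.40 at 8CS, then -2.30 ± 0.04 for GR, -2.23 ± 0.62 for 10SS and -2.29 ± 0.03 for HT (exact permutation p over 369600 arrangements = 0.0181, adjusted p = 0.0362 over the 6 tests). From GR on the means of this difference were nearly equal, and the 8CS arrays lay below all others. At most 2 of 3 arrays of each high quality group had rnf213 well above background. Differences that include rnf213 therefore rest in part on a signal near the limit of the measurement. For ifi56 minus irf7 the means were -3.44 ± 0.63 at 8CS, then 3.25 ± 0.71 for GR, -1.47 ± 0.42 for 10SS and -0.79 ± 0.17 for HT (exact p = 6.49e-05, adjusted p = 0.00039). For ifi56 minus rnf213 they were 1.55 ± 0.55 at 8CS, then 5.55 ± 0.74 for GR, 0.75 ± 0.21 for 10SS and 1.50 ± 0.14 for HT (exact p = 0.000909, adjusted p = 0.00273). Here GR stood above the other stages without overlap. Statements on overlap of these differences between stages are descriptions only, as the share of all probe pairs was not taken.

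**Figure D3:**
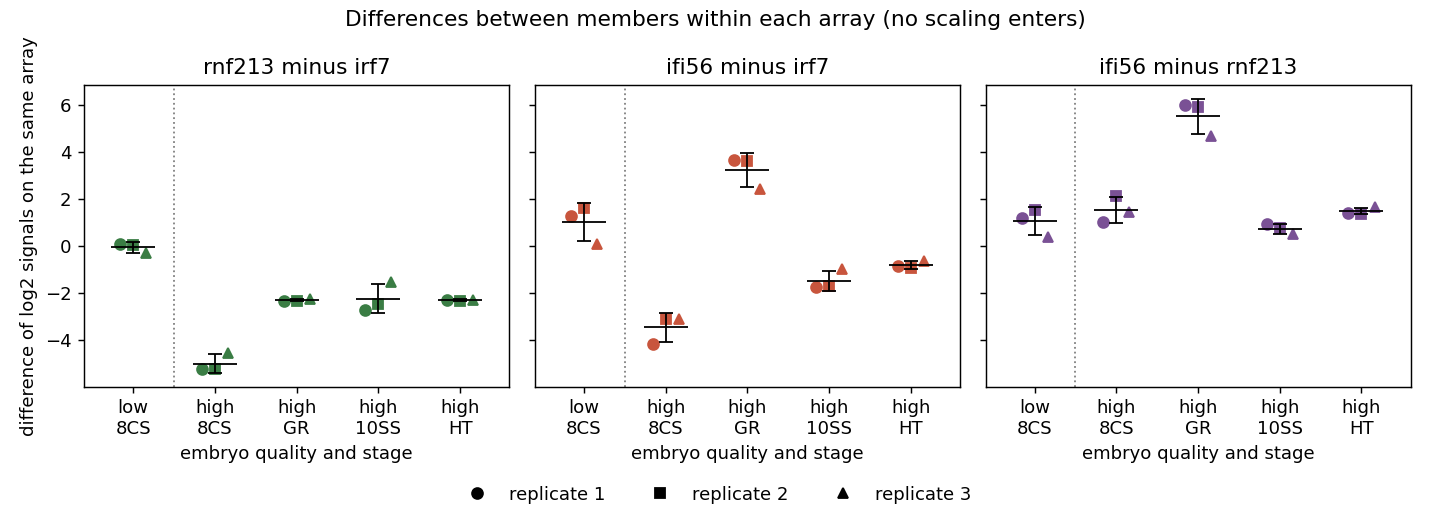
Difference of the log2 signals of 2 members on the same array (vertical axis) by group (horizontal axis, low quality 8CS left of the dotted line), with arrays as symbols and mean ± SD of 3 arrays as bars. For rnf213 minus irf7 the low quality 8CS mean of -0.04 stands far above -4.99 in high quality 8CS embryos, and GR, 10SS and HT lie at -2.30, -2.23 and -2.29.

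The rank of a probe among the 10180 probe names of its array needs no scale factor. The irf7 probe was at percentiles 37.2, 38.6 and 39.8 in low and at 70.2, 57.7 and 58.6 in high quality 8CS embryos, at 47 to 48.6 at GR, 30.1 to 41.8 at 10SS and 29 to 30 at HT. The ifi56 probe was at 40.9 to 51.3 in low and 30.6 to 31.2 in high quality 8CS embryos, at 73.1 to 80.9 at GR, 16.3 to 31.7 at 10SS and 21.3 to 24 at HT. The rnf213 probe was at 37.6 to 39.3 in low and 17.4 to 23.8 in high quality 8CS embryos, at 25.5 to 28.6 at GR, 11.6 to 26.9 at 10SS and 12 to 13.1 at HT. By rank rnf213 at HT lay below all high quality 8CS arrays, whereas the levels of these groups overlapped, and irf7 at HT lay below all low quality 8CS arrays. The share of all probes without overlap in rank was not taken, so this is a description only. A rank also depends on the other probes of its array. Spike-in scaling gave the other direction for both, with 1.98 for rnf213 in HT minus 8CS and -1.40 for irf7 in low quality 8CS minus HT. In each probe the highest 10SS rank was that of replicate 3, so 1 array set the upper end of this stage.

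**Figure D4:**
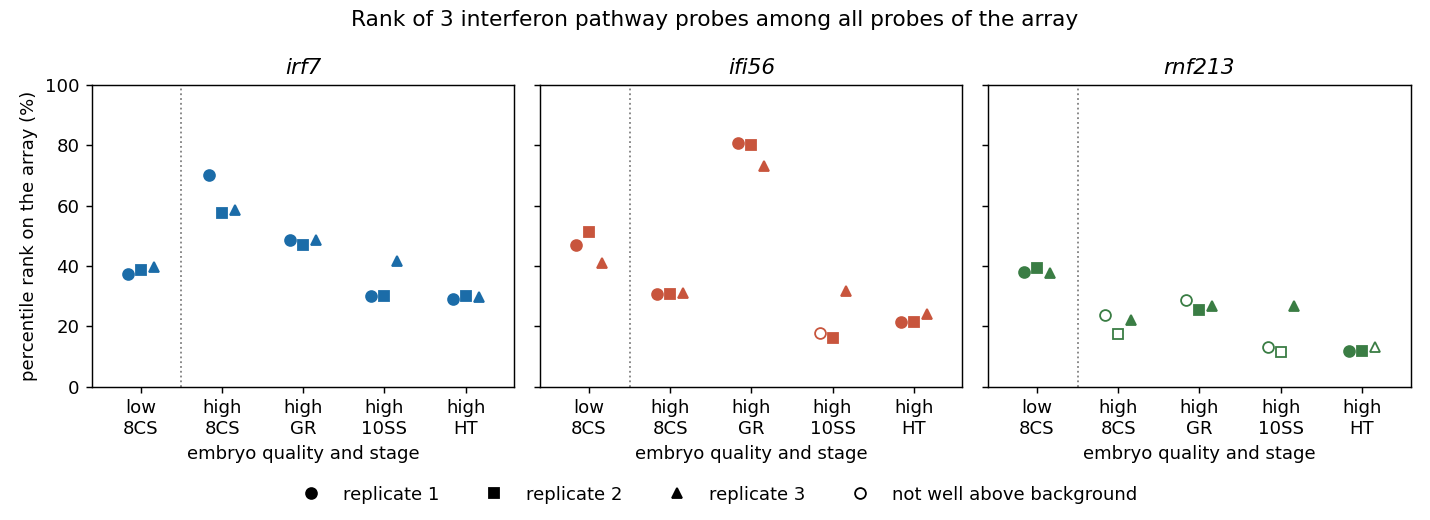
Percentile rank of irf7, ifi56 and rnf213 among all probe names of an array (vertical axis, 100 is the brightest) by group (horizontal axis), with 1 symbol per array, open where the probe was not well above background. The ifi56 probe reaches 80.9 at GR, and irf7 is at 37.2 to 39.8 in low against 57.7 to 70.2 in high quality 8CS embryos.

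In order of level, irf7 ran from high quality 8CS (-1.26) through GR (-2.86), low quality 8CS (-4.12) and 10SS (-4.22) to HT (-4.30). In a limma fit over all 15 arrays, low quality 8CS embryos were lower than GR (-1.27, adjusted p = 0.00696, where 48.7% of 9353 probes passed), and this difference was -0.24 under spike-in scaling (adjusted p = 0.602). They differed from 10SS by 0.09 (95% interval -0.65 to 0.84, 59.3% of probes passed) and from HT by 0.17 (95% interval -0.58 to 0.92, 64.8% passed), so that the last 3 groups in this order did not differ beyond their spread. Without 10SS replicate 3 low minus 10SS was 0.47 (adjusted p = 0.173). Under spike-in scaling low quality 8CS embryos were below HT, by -1.40 (adjusted p = 0.00224). By the methods, low quality 8CS embryos and the later stages came from separate collections. Quality, stage and collection therefore cannot be told apart in such comparisons of any member.

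For ifi56 the order was GR (0.40), low quality 8CS (-3.10), high quality 8CS (-4.70), HT (-5.08) and 10SS (-5.69). Low quality 8CS embryos were below GR (-3.50, adjusted p = 2.85e-05) and above 10SS (2.59, adjusted p = 0.000267) and HT (1.98, adjusted p = 0.0017, but 0.41 with adjusted p = 0.476 under spike-in scaling). Neighbours from low quality 8CS downwards did not pass under the 75th percentile scaling. Without 10SS replicate 3 low minus high quality 8CS (1.60, adjusted p = 0.00508) and HT minus 10SS (1.22, adjusted p = 0.0163) did in this fit, which shares its estimate of the spread among all groups, and low minus 10SS was 3.21.

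For rnf213 the order was low quality 8CS (-4.17), GR (-5.15), high quality 8CS (-6.25), 10SS (-6.45) and HT (-6.58), and in this fit none of the neighbours passed. Low minus GR was 0.98 (adjusted p = 0.0967, but 2.01 with adjusted p = 0.00109 under spike-in scaling), low minus 10SS was 2.28 (adjusted p = 0.000995) and low minus HT was 2.42 (adjusted p = 0.00053, but 0.85 with adjusted p = 0.088 under spike-in scaling). Without 10SS replicate 3, GR minus high quality 8CS passed (adjusted p = 0.00209) and low minus 10SS was 3.0. The highest mean of rnf213 was thus that of the low quality 8CS embryos. All 3 of their arrays were above all 12 high quality arrays under this scaling, which is a description only.

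Likeness of pattern was taken as the Pearson r of a probe with each member over the 15 arrays, among 9352 other probes. The arrays fall into 5 groups, so r mainly follows the group means and is given as a description. Most like irf7 were HH_90606468 (r = 0.939), HH_Contig2710 (0.925) and HH_90605509 (0.919). The study listed the first as uncharacterized and, by a domain search, placed it in the chaperonin-like superfamily. The study also took it from its comparison of qualities, and its means were -3.66 in low and -2.50 in high quality 8CS embryos. Most like ifi56 were HH_Contig2449 (0.949), HH_90600383 (0.947) and HH_75737906 (0.945), all highest at GR, where HH_75737906 averaged 2.97 against 0.55 in high quality 8CS embryos. Most like rnf213 were HH_Contig617 (0.937), HH_90606632 (0.903) and HH_Contig126 (0.903), all highest in low quality 8CS embryos. The means of HH_Contig617 in the high quality groups were between -8.21 and -7.06. In each group the mean lay below the lowest level well above background on its arrays, so this r rests in part on background. Apart from HH_90606468 these probes have no name in the sources used here.

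Among the genes of the pathway, mhc1a was the most like rnf213, in place 5 of 9352 probes (r = 0.888), and it was at 0.679 with ifi56 and at -0.177 with irf7. Among the members, irf7 was little like the others over the 15 arrays, at r = 0.207 with ifi56 (place 4025) and 0.033 with rnf213 (place 4826). The r of ifi56 and rnf213 was 0.612, with rnf213 in place 1329 for ifi56 and ifi56 in place 1378 for rnf213. With irf7, psmb9 ran most opposite among the genes of the pathway (r = -0.728). The study took irf7, rnf213, mhc1a and psmb9 from its own comparison of qualities on arrays that also enter r. The r values between these genes are therefore not independent evidence.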

How the data were processed

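Samples were grouped by their labels. The authors deposited scanner output for every array, with a background-subtracted intensity per spot (the processed signal) that is not normalized between arrays (Feature Extraction 10.7.1.1 per the file headers, 7.2 in the processing notes). The authors also deposited log2 values of 9017 probes, each centred on its own median, which served as an alternative only. The study describes a normalization at the 75th percentile. For HT minus 8CS the median of all probes was -0.39 in these values and with quantile normalization, against -0.11 under the 75th percentile scaling. For low minus high quality 8CS it was 0.11, 0.13 and -0.06. For 10SS minus GR it was similar in all of them (-0.24, -0.25 and -0.23). These values and quantile normalization therefore cannot be counted as separate alternatives.

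Control spots (1264 positive, 153 negative) and outlier spots were left out, and log2 signals minus the 75th percentile of the array were averaged over the spots of a probe (4 or 5 for the members). A probe was kept if any array of the comparison had it at the 20th percentile or higher. A probe was well above background where most of its spots were so marked. Where this held on no array of the dimmer group, the fold is a bound, against the lowest level well above background on each array or the probe's own, whichever is higher. Contrasts were tested with limma 3.58.1 in R 4.3.3 (lmFit, eBayes, Benjamini-Hochberg within a contrast), on the 12 high quality arrays, on the 6 8CS arrays, or on all 15. The calculation was tested on simulated data. Alternatives were quantile and spike-in scaling (8 of 10 spike-in probes), normexp (offset 50), other filters, the median over spots, a single fit of all arrays, slide or replicate number as a block, the deposited table and each array left out.

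Named are the 3 members, 5 genes of the pathway with a probe paired to a name in the study's tables, the 3 probes most like each member, and mybpc3. Tdrd3 was drawn up as a further check of stage labels (-5.25 at HT and -1.84 at 8CS, high quality). The study reported it as a transcript of 8CS from these arrays, so this check is not independent either. The members and lists were chosen with earlier results of these data known. The reference table has a gene irf7, but no link to the probes, so no coordinates are given.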

Additional observations from a re-analysis of the deposited data

How the results depend on the processing

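Every step of ifi56 into and out of GR kept its sign and call under all alternatives, and the sign of irf7, ifi56 and rnf213 between qualities held under all. The calls between qualities are less firm. For irf7 (-2.87) the call was lost with slide as a fixed block (-2.85) and for rnf213 (2.08) with slide as a fixed block (2.0), normexp (0.41) and the median over spots (2.0). The difference of ifi56 (1.60) passed under spike-in scaling (2.35) and with the filter for probes well above background in all arrays of a group (1.60, adjusted p = 0.046). Leaving out 1 array gave -3.09 to -2.50 for irf7, 1.31 to 1.91 for ifi56 and 1.75 to 2.33 for rnf213. Probes called between qualities (102) came to 2367 under spike-in scaling, 174 with the filter on background, 23 with slide as a fixed block, 344 with all 15 arrays in one fit and 11 to 708 with 1 array left out (17, 23 and 708 without high quality replicates 1, 2 and 3, and 11 and 17 without low quality replicates 1 and 2).

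Deviations of same-numbered arrays from their group means correlated at 0.354, 0.437 and 0.567 between high quality 8CS and 10SS. Between the other groups checked they correlated at -0.219 to 0.125. Replicate 3 was the array least like the others in high quality 8CS and in 10SS, but also in GR and in low quality 8CS. It was on slide 4 in both 8CS groups and in GR, and on slide 5 in 10SS. No other array of these groups was on that slide, so replicate 3 and slide cannot be told apart. Whether the same-numbered arrays of 8CS and 10SS are paired by batch was not tested. For this pair, in a fit on these 6 arrays chosen after seeing the data, the replicate block changed no call of a member: 10SS minus 8CS was -2.96 for irf7 (adjusted p = 0.00656 with the block and 0.00362 without it), -0.99 for ifi56 (0.133 and 0.177) and -0.20 for rnf213 (0.791 and 0.828). Without 10SS replicate 3, in the limma fit over all groups, 10SS minus 8CS was -3.33 for irf7 (adjusted p = 5.25e-07). For ifi56 it was then -1.60 and passed (adjusted p = 0.000861), beside -0.99 with this array (adjusted p = 0.0769). For rnf213 it was -0.92, under 2-fold (adjusted p = 0.01). In the fits of the report, with the replicate block 17 probes passed between qualities, irf7 (-2.87, adjusted p = 0.0891) and rnf213 (2.08, adjusted p = 0.116) did not pass, and rnf213 passed for 10SS minus GR (-1.30, adjusted p = 0.0494).

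Between stages, spike-in scaling set the median of all probes to -0.14 for GR minus 8CS, 1.59 for 10SS minus GR, 0.72 for HT minus 10SS and 2.21 for HT minus 8CS, beside 0.14, -0.23, -0.05 and -0.11. It turned irf7 for 10SS minus GR (0.46) and HT minus 10SS (0.70), ifi56 for HT minus 8CS (1.94), and rnf213 for 10SS minus GR (0.52), HT minus 10SS (0.64) and HT minus 8CS (1.98). It ended the call of irf7 for HT minus 8CS (-0.72), and ifi56 passed for HT minus 10SS (1.38). Probes called came to 6287 for 10SS minus GR and 2596 for HT minus 10SS, beside 3917 and 1346.

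Slide as a fixed block gave -1.12 for irf7 in GR minus 8CS (call lost), -0.62 and -3.25 for ifi56 in HT minus 10SS (turned) and HT minus 8CS (passed), and -1.90, -1.58 and -2.33 for rnf213 in 10SS minus GR, HT minus 10SS and HT minus 8CS, all of which passed. All HT arrays are on slide 5 with 10SS replicate 3, so this fit sets HT against that array alone. As a random block it gave -0.36 (turned) and -2.38 (passed) for ifi56, and 1.26, -1.75, -1.34 and -1.82 for rnf213 in GR minus 8CS, 10SS minus GR, HT minus 10SS and HT minus 8CS, all of which passed. Probes called for HT minus 10SS came to 4476 with the fixed and 4103 with the random block.

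For rnf213, 10SS minus GR also passed with quantile normalization (-1.53), normexp (-1.20), all 15 arrays in one fit (-1.30) and the deposited table (-1.51), and HT minus 8CS with quantile normalization (-1.44), normexp (-1.18) and the deposited table (-1.39). Normexp gave -0.06 for ifi56 in HT minus 10SS. With 1 array left out, HT minus 10SS was 0.26 to 1.22 for ifi56, -0.30 to 0.29 for irf7 and -0.59 to 0.59 for rnf213. Rnf213 was 0.76 to 1.35 for GR minus 8CS and -2.02 to -0.85 for 10SS minus GR, and 769 to 1763 probes passed for HT minus 10SS (876, 783 and 769 without HT replicates 1, 2 and 3).

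Within arrays, normexp lowered the changes between qualities to 2.56 for rnf213 minus irf7 and 2.85 for ifi56 minus irf7, and turned ifi56 minus rnf213 (0.29). For GR minus 8CS it gave 1.67, 4.77 and 3.11 for these pairs, and the deposited values gave 2.26 for the first. Normexp was run with an offset of 50, and how much of these shifts came from the offset was not tested.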
